A study of Mus musculus with 2 samples.

Results

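The genes described here are 10 genes of killer lymphocytes, matched by symbol in the feature lists of the deposited single-cell count tables and present there among 32285 genes. They are 4 granzymes (Gzma, Gzmb, Gzmc, Gzmm), the pore protein gene Prf1, the granule membrane gene Nkg7, the chemokine genes Ccl5 and Xcl1, the interferon-gamma gene Ifng and the receptor gene Klrd1. They were followed through every cell class of the tissue, including retinal pigment epithelium (RPE) cells. The tissue was the RPE, choroid and sclera of C57BL/6J mice of 3 months. The control mice received a subretinal injection of 1 µl of PBS, and the Dox mice received 1 µl of doxorubicin, a DNA-damaging drug, at 100 ng/µl. Tissue was taken 7 days later, and 10 eyes of 5 mice were pooled for each group. Each condition therefore had 1 library and no replicate, no test between conditions was possible, and treatment, injection, pool and library cannot be told apart.

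Natural killer (NK) cells and CD8 T cells kill through granules that they empty onto a target cell. Perforin, the product of Prf1, opens the membrane of the target, and granzymes enter as serine proteases that cut proteins inside it. Nkg7 encodes a membrane protein needed for efficient granule release. The same lymphocytes secrete chemokines. Ccl5 attracts T cells and monocytes, and Xcl1 attracts the dendritic cells that carry Xcr1. Interferon gamma, from Ifng, acts on most cells of a tissue and raises antigen presentation. Klrd1 encodes CD94, which pairs with NKG2 proteins to read the non-classical MHC molecule encoded by H2-T23.

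RNA molecules were counted by unique molecular identifiers (UMIs), a tag attached to each one before amplification. After filtering, 20180 control cells with a median of 4495 UMIs and 15426 Dox cells with a median of 4995 UMIs were kept, and 441 cell barcodes occurred in both libraries. No NK or T-like barcode and 3 RPE barcodes were among those shared within one class. The members held 23330 UMIs in control and 17095 in Dox. Levels are UMIs per 1000000 UMIs of a class (CPM), and every 95% interval covers counting error only. The reads come from the 5′ ends of transcripts and a level was not scaled to transcript length, so levels were compared between classes and libraries and not between genes.

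The genes lie on 7 chromosomes of GRCm38, the assembly also called mm10. Gzma, a tryptase, is at chr13:113093825-113100981 on the minus strand. Gzmb and Gzmc, neighbours in the granzyme cluster of chromosome 14, are at chr14:56258838-56262260 and chr14:56231441-56234656, both on the minus strand. Gzmm, which cuts after methionine, is at chr10:79689020-79695261 on the plus strand, with Prf1 at chr10:61297833-61304680 and Ifng at chr10:118441046-118445892 on the same strand. Nkg7 is at chr7:43437073-43438249 and Klrd1 at chr6:129591782-129598775, both on the plus strand. Ccl5 is at chr11:83525778-83530518 and Xcl1 at chr1:164931644-164935527, both on the minus strand. Of the transcripts of Gzmc, 4.14% of the stretches of 50 bases also occurred in another granzyme, most often Gzme, so a small part of its reads could not be assigned to it alone. Gzma, Gzmb and Gzmm shared none with the 9 granzyme genes compared.

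Promoter sequences were taken from RefSeq on GRCm38.p6, which gave an entry for 8 of the 10 genes, with 9 starts. Ccl5 and Klrd1 had no entry. The 250 bases before the start are shown for the 3 granzymes that differed most between the libraries in lymphocytes and for both starts of Gzmm, the member that RPE cells also held. Capitals mark matches, on either strand, to the letters TGTGGT of the RUNX motif, AGGAAG of the ETS motif, TCACAC of the T-box motif, TAATCC of the OTX motif, CACGTG of one E-box motif, CATGTG of another E-box motif and TATAAA of the TATA box. No match in the printed sequences overlapped another. Gzma is shown from chr13:113100982-113101231 (minus strand), Gzmb from chr14:56262335-56262584 (minus), Gzmc from chr14:56234658-56234907 (minus), and Gzmm from chr10:79688770-79689019 for start 1 and from chr10:79693576-79693825 for start 2 (both plus).
Gzma: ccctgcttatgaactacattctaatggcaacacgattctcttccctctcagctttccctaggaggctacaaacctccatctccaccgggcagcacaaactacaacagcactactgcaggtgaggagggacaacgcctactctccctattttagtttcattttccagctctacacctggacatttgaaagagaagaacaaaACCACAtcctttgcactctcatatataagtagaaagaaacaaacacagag
Gzmb: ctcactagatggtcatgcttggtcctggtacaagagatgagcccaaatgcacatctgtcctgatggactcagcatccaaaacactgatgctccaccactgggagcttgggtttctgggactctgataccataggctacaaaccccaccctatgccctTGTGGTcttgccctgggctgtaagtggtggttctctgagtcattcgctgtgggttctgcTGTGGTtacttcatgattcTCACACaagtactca
Gzmc: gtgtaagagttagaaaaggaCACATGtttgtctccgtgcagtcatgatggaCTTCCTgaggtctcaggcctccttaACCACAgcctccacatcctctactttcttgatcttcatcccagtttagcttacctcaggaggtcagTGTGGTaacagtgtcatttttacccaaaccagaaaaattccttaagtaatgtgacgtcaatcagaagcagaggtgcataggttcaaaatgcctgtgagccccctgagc
Gzmm start 1: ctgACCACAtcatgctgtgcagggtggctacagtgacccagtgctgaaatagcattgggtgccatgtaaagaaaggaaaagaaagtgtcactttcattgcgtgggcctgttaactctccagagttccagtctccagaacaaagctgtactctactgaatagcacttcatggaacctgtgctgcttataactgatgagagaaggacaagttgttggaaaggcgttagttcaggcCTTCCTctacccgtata
Gzmm start 2: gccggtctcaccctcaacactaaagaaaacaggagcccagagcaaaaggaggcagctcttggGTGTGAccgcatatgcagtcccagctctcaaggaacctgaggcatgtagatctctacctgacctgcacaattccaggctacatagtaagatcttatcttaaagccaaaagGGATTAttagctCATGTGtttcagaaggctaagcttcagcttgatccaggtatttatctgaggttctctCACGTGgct

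A RUNX match stood in the promoters of Gzma, Gzmb, Gzmc, Prf1, Nkg7 and Xcl1 and at start 1 of Gzmm, and neither start 2 of Gzmm nor Ifng had one. It was present in 14.0% of all 32817 promoter entries. Gzmb held matches 93 and 34 bases before its start and Gzmc 174 and 108 bases before, while the match of Gzma was 50 bases before. Start 1 of Gzmm had a RUNX match 247 bases and an ETS match 17 bases before it. Start 2 had a T-box match 188 bases before it, an OTX match at 78 and the E-boxes CATGTG at 66 and CACGTG at 9 bases. OTX letters also stood 55 bases before the start of Ifng, and CATGTG stood 230 bases before that of Gzmc. The OTX, CATGTG and CACGTG letters were found in 6.25%, 12.3% and 6.02% of all promoter entries. T-box letters were present in 12.3% of the entries, ETS letters in 29.5% and TATA letters, which stood 30 bases before the start of Ifng, in 12.4%. Such a match describes the letters only, and the UMI counts do not say which start of Gzmm was read.

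The members were concentrated in a small lymphocyte class. It was the cluster led by Ms4a4b, Cd3e, Cd3g and Cd3d, with all 21 NK and T markers detected, and it was named NK or T-like. It held 458 control cells (2.27%, 95% interval 2.07 to 2.48) and 273 Dox cells (1.77%, 1.57 to 1.99). Those cells carried 69.3% of the summed UMIs of the members in control and 71.5% in Dox. Prf1 had 94.0% and 93.5% of its UMIs there, Gzmb 93.1% and 95.5%, Gzma 90.5% and 97.3%, and Xcl1 91.8% and 97.4%. Ifng and Nkg7 followed the same pattern, with 92.7% and 89.2% for Ifng and 90.8% and 96.9% for Nkg7. Gzmc was the most restricted, with 100% in control and 98.3% in Dox. Ccl5 was broader, with 75.9% and 81.2%. The remaining members were spread differently. Klrd1 had 27.8% and 33.9% of its UMIs in NK or T-like cells, and Gzmm had 0.832% and 0.785%. Of the 10 genes, 9 had their highest level among the 12 classes in NK or T-like cells in both libraries, and the exception was Gzmm, which was highest in RPE cells. The order was clear for 8 of these 9, but the interval of Klrd1 in NK or T-like cells (130.5 to 164 CPM in control, 169 to 217 CPM in Dox) overlapped that in antigen-presenting-like cells (130.4 to 151 CPM and 149 to 179 CPM).

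**Figure D1:**
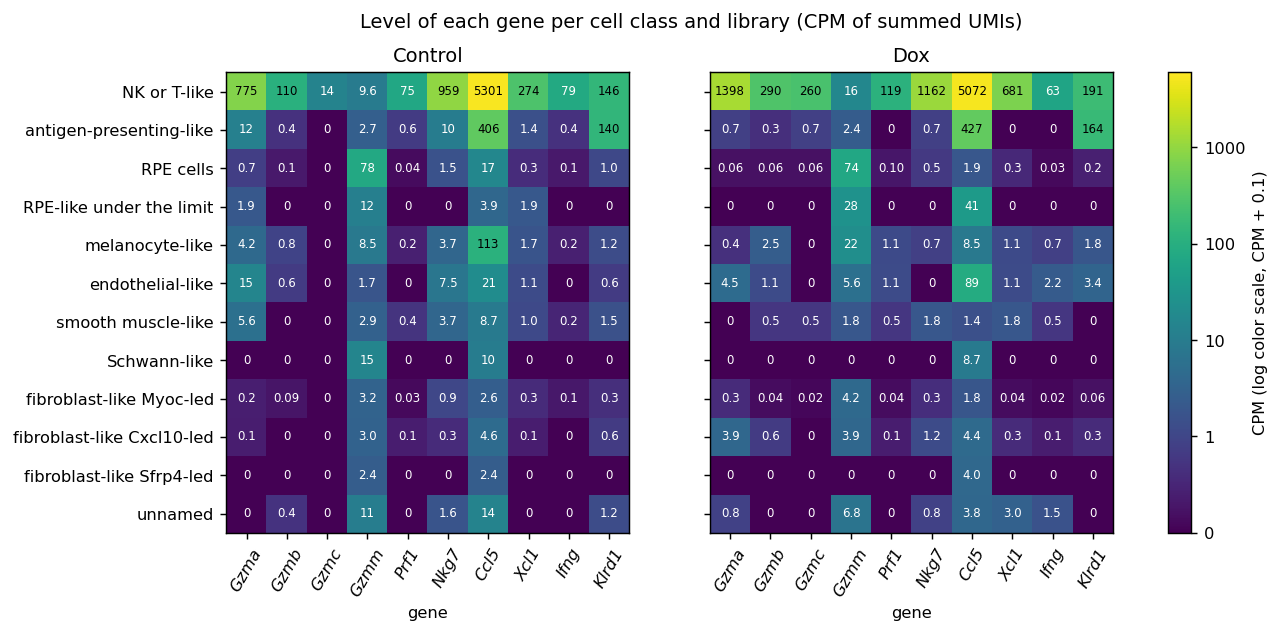
Level of each of the 10 genes in UMIs per 1000000 UMIs (CPM) in each of 12 cell classes, with the control and the Dox library side by side and colour on a log scale. The NK or T-like row holds the highest level of every gene except Gzmm, whose highest level is in RPE cells at 78.0 and 74.4 CPM.

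The share of NK or T-like cells with at least 1 UMI differed widely between the members. Nkg7 was seen in 64.6% of control and 66.3% of Dox cells and Ccl5 in 58.3% and 61.9%. Klrd1 was seen in 35.2% and 40.7%, Xcl1 in 30.3% and 32.2%, Gzma in 19.7% and 24.9%, and Ifng in 19.0% and 18.3%. Prf1 was seen in 17.0% and 23.8%, Gzmb in 14.8% and 18.7%, Gzmm in 3.06% and 5.13%, and Gzmc in 1.31% and 3.30%. Fibroblasts should lack these genes, and the largest fibroblast-like class served as the background, at median depths of 4745 and 5407 UMIs against 3713.5 and 3906 in the lymphocytes. There, Nkg7 was seen in 0.415% and 0.192% of cells, Ccl5 in 1.26% and 0.948%, Gzma in 0.0812% and 0.168%, and Prf1 in 0.0181% and 0.0240%. Gzmm was seen there in 1.64% and 2.30%, not far under its share in lymphocytes. With each cell thinned to 1000 UMIs, which kept 440 control and 264 Dox lymphocytes, Ccl5 was seen in 53.2% and 55.3%, Nkg7 in 46.4% and 48.5% and Gzma in 16.8% and 21.2% of cells.

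The class held at least 2 kinds of cell, and the members divided between them. Cells with a UMI of Cd3d, Cd3e or Cd3g, parts of the T cell receptor complex, numbered 345 in control and 178 in Dox. Cells without one numbered 113 in control (24.7%, 20.8 to 28.9) and 95 in Dox (34.8%, 29.2 to 40.8), and 82 and 75 of them had a UMI of the NK receptor genes Ncr1, Klrb1c or Klre1. Cd3-negative cells were shallower, at medians of 2852 and 3405 UMIs against 4050 and 4065.5, and a T cell in which no Cd3 UMI was caught cannot be told apart from a cell without Cd3. Prf1 stood at 288 CPM in Cd3-negative against 26.4 CPM in Cd3-positive control cells, and at 301 against 28.3 CPM in Dox. Gzma stood at 3206 against 225 CPM in control and at 3432 against 386 CPM in Dox. Prf1 and Gzma were thus many times higher in Cd3-negative cells of both libraries, and Gzmb was too, at 385 against 48.1 CPM in control and 745 against 63.5 CPM in Dox. Nkg7 was nearer, at 1715 against 788 CPM in control and 2009 against 741 CPM in Dox. Gzmm, and Gzmc in control, did not show this order, but they rested on few UMIs. Gzmm stood at 5.20 against 10.6 CPM in control, from 2 and 18 UMIs. In Dox it stood at 6.83 against 20.4 CPM, from 3 and 18 UMIs. Gzmc stood at 5.20 against 15.8 CPM in control, where 1 Cd3-positive cell held 20 of the 27 Cd3-positive UMIs. Ccl5 was the least divided, at 6127 against 5114 CPM in control and 5978 against 4622 CPM in Dox. Among the Cd3-negative cells with an NK receptor UMI, Nkg7 was seen in 91.5% of control and 98.7% of Dox cells, Ccl5 in 84.1% and 88.0%, and Klrd1 in 67.1% and 68.0%. Gzma was seen in 65.9% and 69.3% of these cells, Xcl1 in 69.5% and 66.7%, and Prf1 in 47.6% and 64.0%. At least 3 members were seen together in 87.8% of these cells in control and 97.3% in Dox.

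The granule genes also met in the same cells. Of the 40 control Cd3-negative cells with a Prf1 UMI, 95% had Gzma and 62.5% had Gzmb, against 27.4% and 8.22% of the cells without Prf1. Of the 49 such Dox cells, 83.7% had Gzma and 57.1% had Gzmb, against 23.9% and 15.2%. Ifng was less tied to Prf1, at 25% of cells with Prf1 against 19.2% without in control and 34.7% against 17.4% in Dox. Cells with more UMIs show more of every gene, so part of any such meeting comes with depth, and its share was not tested. Among Cd3-positive cells the members that met were others. Of the 77 control and 35 Dox cells with Xcl1, 59.7% and 74.3% had Klrd1, against 20.9% and 22.4% of those without, while only 6.49% and 5.71% had Gzma.

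Dox was then set against control within the NK or T-like class, where 9 members had at least 50 UMIs over both libraries. Gzmb, Gzmc and Xcl1 were at least 2-fold higher in Dox, 3 of the 9, and none was at least 2-fold lower. Over all 7167 genes with that many UMIs, 0.446% were at least 2-fold higher and 1.66% at least 2-fold lower, and the median log2 ratio was -0.02. Gzmc is among the 9 through its Dox UMIs alone, so the count of 3 is a description of these libraries.

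Among the member granzymes, Gzma, Gzmb and Gzmc were measured at a higher level in the Dox library. Gzma had 1618 UMIs in control (775 CPM) and 1848 in Dox (1398 CPM), and the log2 ratio was 0.85 (0.76 to 0.95). Gzmb, which activates caspases in the target, had 230 UMIs (110 CPM) and 383 UMIs (290 CPM), a log2 ratio of 1.40 (1.16 to 1.64). Gzmc had 29 UMIs (13.9 CPM) and 343 UMIs (260 CPM), a log2 ratio of 4.22 (3.68 to 4.82). The interval of Gzmm, at 20 and 21 UMIs (9.57 and 15.9 CPM), included no difference, with a log2 ratio of 0.73 (-0.22 to 1.69). The partners of the granzymes were closer between the libraries. Prf1 had 156 and 157 UMIs, which is 74.7 and 119 CPM and a log2 ratio of 0.67 (0.34 to 0.999). Nkg7 had 2003 and 1536 UMIs, at 959 and 1162 CPM, with a log2 ratio of 0.28 (0.18 to 0.37). The secreted signals went different ways. Xcl1 had 572 UMIs (274 CPM) and 900 UMIs (681 CPM), a log2 ratio of 1.31 (1.16 to 1.47). Ccl5 had 11072 UMIs (5301 CPM) and 6703 UMIs (5072 CPM), a log2 ratio of -0.06 (-0.11 to -0.02). Ifng had 165 UMIs (79.0 CPM) and 83 UMIs (62.8 CPM), and its interval included no difference, with a log2 ratio of -0.33 (-0.73 to 0.06). The receptor gene Klrd1 had 306 and 253 UMIs, at 146 and 191 CPM, a log2 ratio of 0.39 (0.14 to 0.63).

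**Figure D2:**
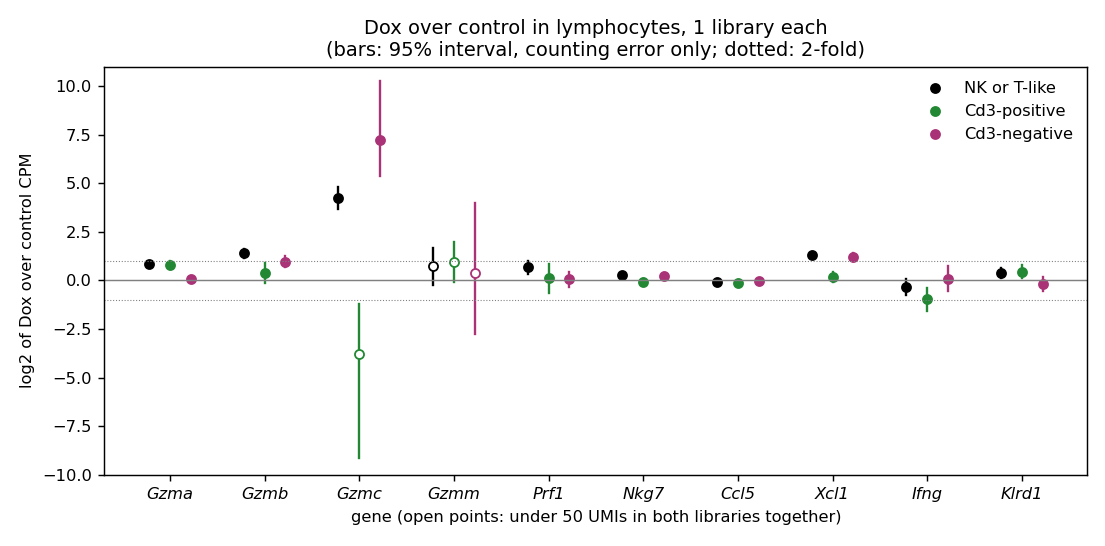
Log2 ratio of Dox over control CPM for each of the 10 genes in NK or T-like cells and in their Cd3-positive and Cd3-negative cells, with bars for the 95% interval of counting error and open points for genes under 50 UMIs. Gzmb, Gzmc and Xcl1 lie past a 2-fold difference in the class, and Gzmc lies at 7.23 in Cd3-negative and -3.81 in Cd3-positive cells.

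The share of Cd3-negative cells moved with these ratios, and the ratios within each kind of cell were mostly nearer to no difference. In Cd3-negative cells, 2 of 9 members (Gzmc and Xcl1) were at least 2-fold higher in Dox, beside 1.2% of 2508 genes. None was at least 2-fold lower, beside 1.59%. Gzmc, at 2 and 342 UMIs, is among these 9 in Cd3-negative cells through its Dox UMIs alone, so nothing is read from the count. Gzma had a log2 ratio of 0.10 (-0.01 to 0.21) there, from 1234 and 1507 UMIs, and Prf1 a log2 ratio of 0.06, from 111 and 132 UMIs. Nkg7, with 660 and 882 UMIs, had 0.23 (0.08 to 0.38), and Klrd1, with 119 and 120 UMIs, had -0.18. Gzma and Prf1 thus differed little between the libraries among Cd3-negative cells, while both were higher in Dox in the class. In Cd3-positive cells the log2 ratio of Gzma was 0.78 (0.56 to 0.99), resting on few cells, and that of Prf1 was 0.10. How far the share of Cd3-negative cells entered the class ratios was not tested. Gzmb kept a difference among Cd3-negative cells, from 148 UMIs (385 CPM) to 327 UMIs (745 CPM), a log2 ratio of 0.95 (0.67 to 1.24). Xcl1 went from 272 UMIs (707 CPM) to 724 UMIs (1649 CPM), a log2 ratio of 1.22 (1.02 to 1.43), while the share of cells with an Xcl1 UMI was 54.9% and 55.8%. The mean UMIs of Xcl1 per cell thus differed between the libraries, at 2.41 and 7.62, while the shares of cells were close. Its median was 1 UMI in both, and 8 and 17 cells held 10 or more. Without the 5 cells of most Xcl1 in each library, its log2 ratio there was 0.76 (0.51 to 1.01).

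In Cd3-positive cells, none of 8 members was at least 2-fold higher or lower, beside 0.33% of 6056 genes higher and 1.62% lower. The interval lay above no difference for Gzma, at 0.78 from 384 and 341 UMIs, and for Klrd1, at 0.46 (0.13 to 0.79) from 187 and 133 UMIs. It lay below for Ccl5, at -0.15 (-0.20 to -0.09) from 8714 and 4078 UMIs, and for Ifng, and included no difference for the other 4. Gzmb (82 and 56 UMIs), Prf1 (45 and 25 UMIs), Nkg7 (1343 and 654 UMIs) and Xcl1 (300 and 176 UMIs) had log2 ratios of 0.40, 0.10, -0.09 and 0.18. Ifng was the lowest of the 8, with 124 UMIs (72.8 CPM) in control and 33 UMIs (37.4 CPM) in Dox, and the log2 ratio was -0.96 (-1.56 to -0.40). In Cd3-negative cells its ratio was 0.10 (-0.53 to 0.73), from 41 and 50 UMIs, and the difference between both ratios was not tested. Among Cd3-positive cells with a Cd4 and no Cd8 UMI, the helper T cells, Ifng was seen in 14 of 39 control cells (35.9%, 21.2 to 52.8) and in 0 of 20 Dox cells, which allows a share of cells with a UMI of up to 16.8% at a median depth of 3544.5 UMIs and says nothing of RNA that was not caught. Among those with a Cd8 UMI, the killer T cells, Ifng had 50 UMIs (76.4 CPM) in control and 13 UMIs (34.0 CPM) in Dox, with 16.2% and 14.5% of cells positive.

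Some of these ratios rested on few cells. Gzmc was seen in 6 control cells, with 20, 4, 2 and 1 UMIs in Cd3-positive and 1 and 1 in Cd3-negative cells. It was seen in 9 Dox cells, 8 of them Cd3-negative, and 1 of these held 314 of the 343 UMIs. In that cell Gzmc made up 5.53% of 5678 UMIs, beside 17 UMIs of Gzmb, 76 of Xcl1, 4 of Klrb1c and 2 of Ncr1. Without the cell of most Gzmc in each library, 9 control and 29 Dox UMIs remained, a log2 ratio of 2.35 (1.23 to 3.61). The next Dox cell, with 11 Gzmc UMIs, had 98 of Gzmb, 97 of Xcl1 and 12 of the proliferation gene Mki67 among 20839 UMIs, and no UMI of Ncr1 or Klrb1c. Thus the highest Gzmb and Xcl1 counts of the Dox library fell in the same cell. Without the top cell the log2 ratio of Gzmb in NK or T-like cells was 1.19 and that of Xcl1 was 1.22. The 5 cells of most Xcl1 held 15.6% of its UMIs in control and 37.7% in Dox, and without them the log2 ratio of Xcl1 was 0.91 (0.73 to 1.09). Gzma was spread over more cells, at a median of 13 UMIs in control and 19.5 in Dox cells that held it and a maximum of 89 and 127. Its Cd3-positive ratio was less even, since 5 Dox cells held 80.6% of 341 UMIs. That log2 ratio was 0.78 (0.56 to 0.99) with all cells, 0.40 (0.16 to 0.65) without the top cell of each library and -0.67 (-1.09 to -0.27) without the top 5. Ifng was low in every cell, at 8 UMIs or fewer in control and 6 or fewer in Dox.

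**Figure D3:**
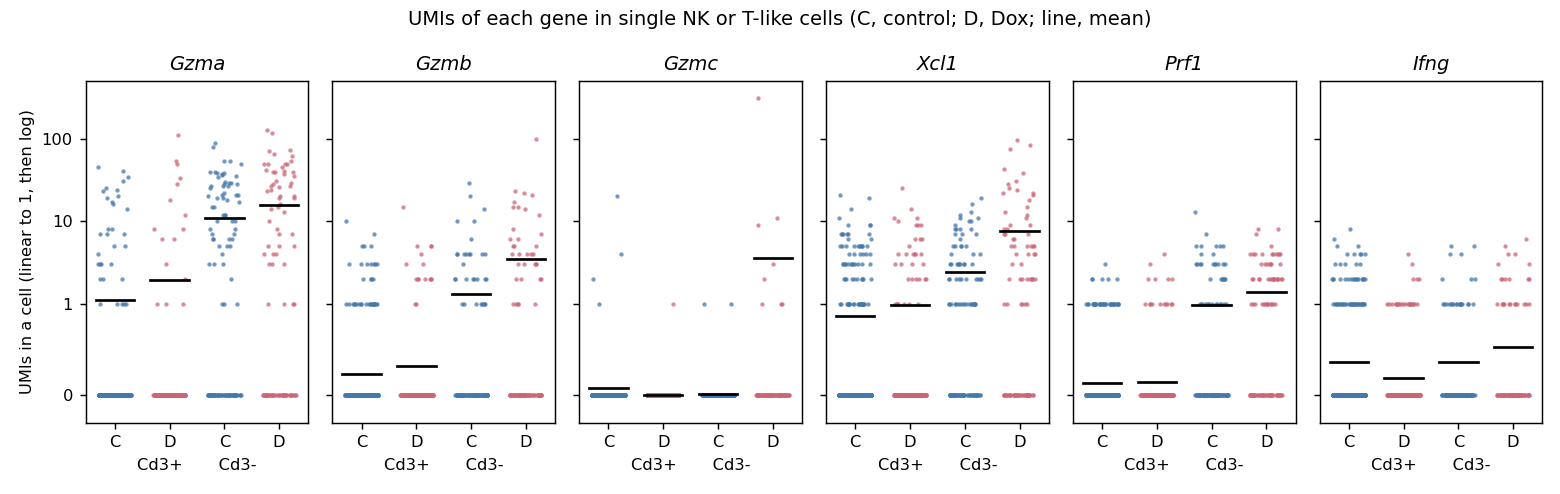
UMIs per cell of Gzma, Gzmb, Gzmc, Xcl1, Prf1 and Ifng in NK or T-like cells, split by library (C, control and D, Dox) and by Cd3 UMIs, with 1 point per cell. A single Dox Cd3-negative cell stands at 314 Gzmc UMIs, and Ifng does not pass 8 UMIs in any cell.

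Klrd1 was not a lymphocyte gene alone. Its largest share of UMIs, 66.0% in control and 63.7% in Dox, lay in the antigen-presenting-like class, led by H2-Eb1, Cd74 and H2-Aa. There it had 725 UMIs (140 CPM) in 964 control cells and 476 UMIs (164 CPM) in 528 Dox cells, and the log2 ratio was 0.22 (0.05 to 0.39). It was held by the cells with few C1q UMIs. Among cells with 3 or more UMIs of C1qa, C1qb and C1qc, which mark macrophages, it was seen in 1.10% of control and 2.71% of Dox cells. Among the C1q-low cells with Cd209a, a marker of monocyte-derived and conventional dendritic cells, it was seen in 85.2% of 176 control cells and 82.2% of 107 Dox cells, at 366 and 370 CPM. That level was above the 146 and 191 CPM of NK or T-like cells as a class. It was nearer to the 309 and 273 CPM of their Cd3-negative cells. Cells with Ccr7, the receptor of migrating dendritic cells, had it in 63.9% and 53.5%, at 353 and 379 CPM. Cells with the B cell genes Cd79a or Ms4a1 had 4 UMIs in 42 control cells and 0 in 34 Dox cells. These cells were deep, with medians of 8263 and 9368 UMIs for the Cd209a cells, which raises the share of cells with a UMI but not the CPM.

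Ccl5 shared part of this distribution. The antigen-presenting-like class held 2099 UMIs (406 CPM) in control and 1241 UMIs (427 CPM) in Dox, seen in 11.6% and 10.2% of cells. Cells with Ccr7 carried 1540 and 905 of these UMIs, at 1360 and 1246 CPM, but only 21.8% and 22.2% of them had any Ccl5. Most of the Ccl5 there was thus in a minority, and cells with 10 or more UMIs, 34 in control and 17 in Dox, held 91.9% and 93.9% of it. In NK or T-like cells, 203 and 124 cells at 10 or more UMIs held 97.1% and 97.4%. In this class, 2 of 4 members with enough UMIs were at least 2-fold lower in Dox, Gzma and Nkg7, beside 1.76% of 9481 genes lower, and none was higher, beside 0.306%. Both reached 50 UMIs through control alone, so the filter fixed their direction and nothing is read from the count. They also came from few cells, since Gzma had 63 UMIs in 3 control cells against 2 in Dox, and Nkg7 had 52 UMIs in 14 control cells against 2 in 1 Dox cell.

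**Figure D4:**
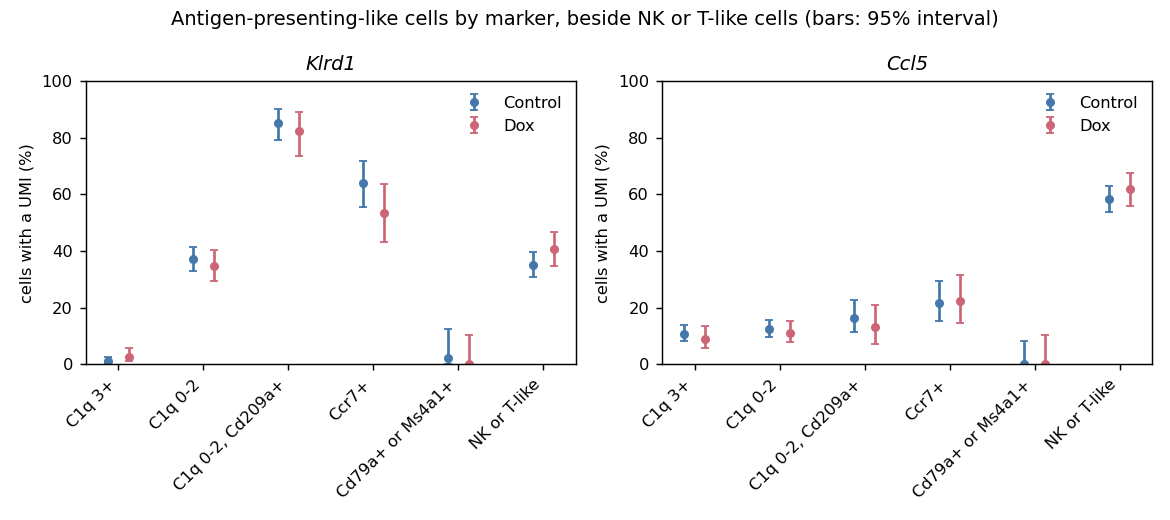
Percent of cells with a UMI of Klrd1 and of Ccl5 in subsets of the antigen-presenting-like class in both libraries, with bars for the 95% exact binomial interval. Klrd1 reaches 85.2% and 82.2% in Cd209a cells and stays at 1.10% and 2.71% in cells with 3 or more C1q UMIs.

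RPE cells, taken as cells with 10 or more Rpe65 UMIs, numbered 1526 in control and 1630 in Dox. Rpe65 encodes the isomerase of the visual cycle, and 1331 and 1413 of these cells fell in the RPE-like cluster, where 10 of 11 RPE markers were detected. Gzmm had 2053 UMIs in control and 2320 in Dox RPE cells, 85.4% and 86.8% of its UMIs. Its level was 78.0 CPM (74.7 to 81.5) in control and 74.4 CPM (71.4 to 77.4) in Dox, and the log2 ratio was -0.07 (-0.16 to 0.02). It was seen in 56.7% (54.2 to 59.2) and 55.5% (53.0 to 57.9) of RPE cells, at medians of 16013.5 and 18115.5 UMIs. With every cell thinned to 1000 UMIs, it was seen in 6.43% and 5.83% of RPE cells, against 0.420% and 0.437% of the largest fibroblast-like class and 0.909% and 1.89% of NK or T-like cells. The counts per cell were mostly low, with 0 UMIs in 661 and 726 cells, 1 UMI in 368 and 319, 8 or more in 19 and 21, and a maximum of 15 and 12.

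Gzmm was higher in cells with more UMIs of Rpe65, the gene by which these cells were chosen, and is given as a description. From cells with 10 to 29 Rpe65 UMIs over those with 30 to 99 to those with 100 or more, its level was 40.6, 68.7 and 91.0 CPM in control and 28.7, 57.3 and 93.0 CPM in Dox. Per 1000 Rpe65 UMIs, the same bands held 16.6, 17.2 and 15.0 Gzmm UMIs in control and 13.0, 16.4 and 15.0 in Dox. Depth moved with the bands, at medians of 5671, 14289 and 24826 UMIs in control and 5543, 15159 and 26824 in Dox, and so did Bsg, another abundant RPE gene, at 3333, 5705 and 7417 CPM in control and 3340, 5438 and 7334 CPM in Dox. With each cell thinned to 1000 UMIs, the share of cells with Gzmm in these bands was 3.79%, 5.44% and 9.32% in control. In Dox it was 3.38%, 5.52% and 7.78%. The part of depth in the climb of Gzmm was not tested further. Just inside the limit of 10, cells with 10 or 11 Rpe65 UMIs (66 and 81 cells) had 28.3 and 7.96 CPM, and just outside it, cells with 8 or 9 (83 and 116 cells) had 17.8 and 22.4 CPM. Per 1000 Rpe65 UMIs these were 14.5 and 4.69 inside and 12.9 and 12.3 outside, from 12 Gzmm UMIs or fewer in each group. Over all RPE cells the ratio was 15.7 and 15.3 per 1000 Rpe65 UMIs. It was 16.5 and 15.4 in the largest fibroblast-like class and 16.7 and 15.8 in melanocyte-like cells, where Gzmm stood at 8.51 and 22.4 CPM and Rpe65 at 510 and 1415 CPM. NK or T-like cells had more in both libraries, 34.7 and 48.7 Gzmm UMIs per 1000 Rpe65 UMIs, from 20 and 21 UMIs. Their Gzmm level was 9.57 CPM (5.85 to 14.8) and 15.9 CPM (9.84 to 24.3), beside Rpe65 at 276 and 326 CPM. Some other classes with few Gzmm UMIs varied more between the libraries. Schwann-like cells had 42.3 and 0 from 3 and 0 UMIs. RPE-like cells under the limit had 14.3 and 38.7 from 6 and 15 UMIs. Endothelial-like cells had 7.98 and 13.6, smooth muscle-like cells 13.3 and 6.31 and the unnamed class 16.7 and 6.503, from 26 UMIs or fewer.

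Gzmm also differed between groups of RPE cells. Cells with 3 or more UMIs of Serpina3n, an acute-phase protease inhibitor, numbered 84 in control and 313 in Dox. They had 44.3 CPM (36.2 to 53.8) and 38.5 CPM (34.4 to 43.0), against 81.3 and 86.9 CPM in the other RPE cells. Rpe65 was lower in the same cells, and per 1000 Rpe65 UMIs the Gzmm count was 14.2 and 15.4 against 15.8 and 15.3. Per 1000 Bsg UMIs it was 6.69 and 7.29 against 12.7 and 13.1, so the lower level showed against Bsg and not against Rpe65. RPE cells with a mitochondrial share of 0.05 or more had 60.8 and 51.2 CPM, against 79.95 and 76.8 CPM below that share. RPE cells of the unnamed cluster, whose leading genes included the nuclear noncoding RNA Neat1, had only 6 and 9 Gzmm UMIs. Those made 17.1 CPM (6.29 to 37.3) and 18.6 CPM (8.52 to 35.4), and 3.50 and 4.86 Gzmm UMIs per 1000 Rpe65 UMIs. Both ratios to Rpe65 were below the 15.7 and 15.3 of all RPE cells. Per 1000 Bsg UMIs the cells of the unnamed cluster had 15.0 and 15.7 where all RPE cells had 12.2 and 11.8. So few UMIs cannot order the ratios to Bsg.

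**Figure D5:**
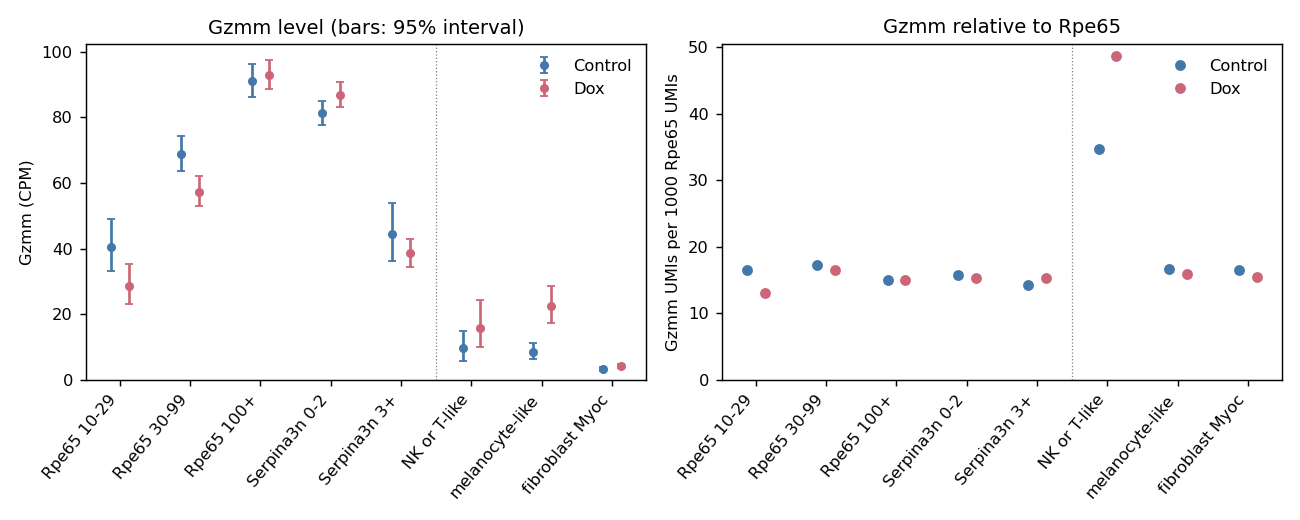
Gzmm in CPM (with 95% intervals of counting error) and in UMIs per 1000 Rpe65 UMIs, in RPE cells by band of Rpe65 UMIs and by Serpina3n, and in other classes, for both libraries. The level climbs from 40.6 to 91.0 CPM in control and from 28.7 to 93.0 CPM in Dox with Rpe65, while the ratio lies between 13.0 and 17.2 in the bands.

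The genes beside Gzmm did not all share its distribution. Cdc34, a ubiquitin-conjugating enzyme gene that ends 0.622 kb before Gzmm, stood at 50.7 and 55.0 CPM in RPE cells and at 33.0 and 41.6 CPM in NK or T-like cells. Bsg, a chaperone of lactate transporters abundant in RPE, starts 9.23 kb after Gzmm ends and stood at 6398 and 6284 CPM against 597 and 649 CPM. Hcn2 stood at 4.64 and 5.54 CPM against 0.48 and 0 CPM. Over both libraries, the level in RPE cells was 17.0 times that in all other cells for Gzmm, 9.07 for Hcn2 and 6.64 for Bsg. It was 5.94 times for Madcam1, 2.72 for Cdc34, 1.34 for Tpgs1 and 1.07 for Polrmt. Rnf126, Fstl3 and Shc2 were lower in RPE cells, at 0.702, 0.128 and 0.0548 times, and neighbours with fewer UMIs are left out.

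The other members were close to background in RPE cells. Any of the 9 was seen in 52 control cells (3.41%) and 39 Dox cells (2.39%), against 2.15% and 1.43% of the largest fibroblast-like class at a lower depth. Of these RPE cells, 13 in control and 2 in Dox also had a Cd3 UMI. In this comparison 2 of 3 members with enough UMIs, Ccl5 and Nkg7, were at least 2-fold lower in Dox, beside 1.86% of 12774 genes lower, and none was higher, beside 0.446%. Ccl5 had 435 UMIs (16.5 CPM) in 38 control cells and 58 UMIs (1.86 CPM) in 25 Dox cells, and the log2 ratio was -3.15 (-3.57 to -2.75). Of the control UMIs, 377 lay in 9 cells, of which 8 also had a Cd3 UMI, 8 had Nkg7 and 6 were among the highest doublet scores. Nkg7 had 39 and 16 UMIs, so it reached 50 through its larger control count, and nothing is read from the count of members lower in Dox. Melanocyte-like cells gave a like case, with 680 Ccl5 UMIs in control and 24 in Dox, 625 of them in 3 control cells that were all among the highest doublet scores.

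The genes around the members in NK or T-like cells were described from lists, counting those with at least 20 UMIs over both libraries. Over all 9996 genes with that many, the interval lay above no difference for 5.15% and below it for 7.01%, and the median log2 ratio was -0.03. Of 10 other granzymes and killing ligands, 5 had enough UMIs and the interval of each included no difference. Fasl, the ligand of the death receptor Fas, stood at 105 and 107 CPM, and Gzmk at 72.3 and 54.5 CPM. Tnf stood at 24.9 and 20.4 CPM and Tnfsf10, the ligand TRAIL, at 8.14 and 14.4 CPM. All 11 genes of granule loading and release had enough UMIs. The interval lay above no difference for 2, Srgn at a log2 ratio of 0.10 and Ctsw at 0.39, and below it for 3, Ctsl at -0.42, Lyst at -0.60 and Lamp1 at -0.23. Srgn encodes the proteoglycan that holds granzymes in the granule. The list was thus split, with a median log2 ratio of -0.17.

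All 18 NK receptors and adaptors had enough UMIs, with intervals above no difference for 9 and below for 1, and a median log2 ratio of 0.46. Fcer1g and Tyrobp, signalling adaptors of NK and myeloid cells, stood at 521 and 465 CPM in control and at 940 and 845 CPM in Dox, log2 ratios of 0.85 and 0.86. Klrc2, an activating partner of CD94, was the 1 gene past 2-fold, at 13.9 and 29.5 CPM (log2 1.09, 0.36 to 1.83), while Klrc1, the inhibitory partner, stood at 129 and 145 CPM. Cxcr6, a homing receptor, was lower at 168 and 126 CPM. The share of Cd3-negative cells, 24.7% and 34.8%, moved with this list, and its part in the ratios was not tested. The transcription factors were even, since the interval of 13 of 14 included no difference, with Id2 at 353 and 347 CPM, Rora at 147 and 145, Stat4 at 118 and 121 and Nfil3 at 102 and 112. The exception was Foxp3, the factor of regulatory T cells, with 26 and 6 UMIs and a log2 ratio of -1.45 (-3.03 to -0.14). It reached 20 UMIs through control alone, and 7.01% of all genes with that many lay below, so nothing is read from it.

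Of 12 cytokines and receptors that drive Ifng, 9 had enough UMIs in NK or T-like cells. Intervals lay above no difference for Il12rb2, Il18rap and Il2rb, at log2 ratios of 0.71, 0.90 and 0.38. Il12rb1, a chain shared by interleukin receptors, had 28 and 4 UMIs, a log2 ratio of -2.15 (-4.12 to -0.63). It had enough UMIs through control alone, so nothing is read from its direction. Il7r, a receptor of naive and memory T cells, stood at 202 and 197 CPM and Il18r1 at 33.0 and 34.8 CPM. The median was 0.03. Of the 16 receptors and partners of the products, 13 had enough UMIs, 2 above, 1 below and 10 with intervals that included no difference. Ifngr1 stood at 757 and 863 CPM, Jak1 at 349 and 449 CPM, and the granzyme B inhibitor gene Serpinb9 at 211 and 221 CPM. Xcr1, the receptor of Xcl1, had no UMI in these cells.

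RNA of the receivers of interferon gamma was also counted in RPE cells. Ifngr1 stood at 21.9 and 17.8 CPM and Ifngr2 at 15.0 and 17.3 CPM. In Cd3-positive lymphocytes Ifngr1 stood at 687 and 747 CPM and Ifngr2 at 62.2 and 72.5 CPM. The part of RNA from other cells in the RPE levels was not tested. Of 19 interferon-gamma-induced genes in the files, 15 had enough UMIs in RPE cells, with intervals above no difference for 3 and below it for 7 and a median log2 ratio of -0.29. Over all 14215 genes with that many UMIs there, the interval lay above for 9.08% and below for 14.7%, with a median of -0.02. Gbp3, a guanylate-binding protein, stood at 19.5 and 58.4 CPM (log2 1.58) and Tap1, a peptide transporter, at 3.27 and 7.95 CPM (log2 1.28). The MHC class II genes H2-Aa and H2-Eb1 were lower, at log2 ratios of -1.31 and -1.55, and Cxcl10 stood at 46.1 and 27.7 CPM. Cd74, whose product binds MHC class II proteins, stood at 101 and 44.2 CPM in RPE cells. Leukocyte genes were lower there too, with Fcer1g at 14.5 and 3.78 CPM and Tyrobp at 17.5 and 4.90 CPM. Srgn stood at 15.1 and 6.54 CPM, and the part of leukocyte RNA in these ratios was not tested. Irf1, a transcription factor, stood at 102 and 82.2 CPM. The list therefore held members in both directions. In NK or T-like cells 14 had enough UMIs, 2 above and 5 below, with a median of -0.07. There Irf8 stood at 151 and 278 CPM, Irf1 at 536 and 469, Cxcl10 at 248.9 and 126 and Socs1 at 126 and 135, and Gbp3, H2-Aa and H2-Eb1 were past 2-fold lower from 40, 53 and 39 UMIs in control to 11, 16 and 4 in Dox. Gbp3, H2-Aa and H2-Eb1 reached 20 UMIs through control alone, so nothing is read from their direction. Cd74, which belongs with the MHC class II genes and marks antigen-presenting cells, moved with these genes. A UMI of it was seen in 22.3% of control and 9.16% of Dox NK or T-like cells. The part of RNA from antigen-presenting cells in these ratios was not tested.

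Over the 24 points of 12 classes in 2 libraries, the genes most like each member were named by Pearson's r of log2(CPM + 1). The points share library and depth, so r is a description. Prf1 was nearest to Samd3, Eomes and Clnk (0.99 for Eomes), and among members to Gzmb at 0.99 and Ifng at 0.98. Gzma was nearest to Lck, Ms4a4b and Klrc1 (0.96 for Lck), and Nkg7 to Lat at 0.98. Xcl1 was nearest to the NK receptor gene Klra4 at 0.98, and Ifng to Samd3 at 0.99 and Ncr1 at 0.98. Ccl5 was nearest to Hcst, Ltb and Il7r, at 0.94, 0.94 and 0.93, and Gzmc to the T cell receptor segment Trdv1 at 0.99, a gene of few UMIs like itself. Klrd1 stood elsewhere, nearest to the leukocyte genes Fgd3, Gpr132 and Ncf4 at 0.99, and to Ccl5 at 0.90 among members. Gzmm stood apart from all, at 0.03 to 0.19 with the other members and nearest to Car10 at 0.92, D630024D03Rik at 0.91 and Slc39a4 at 0.88.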

How the data were processed

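The libraries were made from papain-dissociated RPE, choroid and sclera with a 10x Chromium 5′ kit. Reads had been mapped to mm10 by the authors, who deposited raw UMI counts per gene and cell (Cell Ranger 4.0.0 in the file headers). After the study's methods, a cell needed more than 500 UMIs, between 200 and 6000 genes, a mitochondrial share below 0.2 and a complexity (the log of its genes divided by that of its UMIs) of more than 0.8. They were normalized by SCTransform, integrated on 3000 features less the members (2991 used) and clustered at resolution 0.1 on 40 principal components (R 4.3.3, Seurat 5.3.0, SeuratObject 5.2.0, sctransform 0.4.2). Clusters were named when at least 3 listed markers reached 10 CPM and at least 1 stood among the 10 leading genes. No member was a marker. RPE cells were taken by Rpe65 from any cluster, before the other classes. The names were rebuilt here and may differ from those of the study.

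UMIs were summed per class and library (Python 3.11.15, numpy 2.4.6, scipy 1.17.1, pandas 2.3.3, figures with matplotlib 3.10.9). CPM has an exact Poisson interval, shares a Clopper-Pearson interval and ratios an exact conditional binomial interval, all at 95%. A gene counted as past the fold at 2-fold with 50 or more UMIs over both libraries. All counts entered as deposited, and no count model was fitted with 1 library per condition. For comparisons of shares, cells were thinned to 1000 UMIs and shallower cells left out. Doublets were scored with Scrublet (scanpy 1.11.5) and kept, and an alternative left out the highest scores up to an expected 16.1% in control and 12.3% in Dox. The ratio, its interval and the fold call were tested on simulated summed counts of the NK or T-like class. Those counts were drawn with counting error only, without the uneven spread between cells, and the other steps were not tested in this way.

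All 10 members were named, and from each list the 4 genes with the most UMIs and any past 2-fold whose interval left out no difference. Lyst, Mki67, Klrb1c, Ncr1, Ctsl, Il12rb2 and the Rpe65 comparisons were chosen after values were seen. The members and lists were chosen with earlier results of these data known. Some genes of the lists are counted but not reported here by name. Gene positions are from GENCODE vM21. Depth limited values under 50 UMIs.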

Additional observations from a re-analysis of the deposited data

Results flagged for a closer look

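Gzmc went opposite ways in both kinds of lymphocyte. Its log2 ratio of Dox over control was -3.81 (-9.16 to -1.20) in Cd3-positive cells, from 27 UMIs in 345 control cells to 1 UMI in 178 Dox cells. It was 7.23 (5.36 to 10.28) in Cd3-negative cells, from 2 UMIs in 113 control cells to 342 UMIs in 95 Dox cells. The difference between these ratios was not tested, since each condition had 1 library. Of the 27 control UMIs, 20 lay in 1 cell, and of the 342 Dox UMIs, 314 lay in 1 cell. Without the top cell of each library, 7 and 0 UMIs remained in Cd3-positive cells, and 1 and 28 UMIs in Cd3-negative cells.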

How the results depend on the processing

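No paired analysis was possible because each condition had 1 library. For the same reason no replicate could be left out. The share of the members' UMIs in NK or T-like cells (69.3% in control, 71.5% in Dox) was 71.4% in control without the highest doublet scores and 70.0% in Dox with no upper limit on genes and none on complexity. It was 73.2% and 75.3% with a gate of 3 or more marker UMIs, and 84.1% and 85.3% with cells thinned to 1000 UMIs. Members with their highest level in NK or T-like cells (9 in both libraries) numbered 7 to 9 in control and 8 to 9 in Dox under the alternatives.

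The Gzmm level in control RPE cells (78.0 CPM) was 82.8 CPM without the highest doublet scores. In control and Dox it was 69.1 and 67.0 CPM as a mean of cells, 65.0 and 71.2 CPM with RPE cells thinned to 1000 UMIs, 55.3 and 51.0 CPM at 3 or more Rpe65 UMIs and 82.2 and 79.6 CPM at 30 or more. The share of cells with Gzmm was 6.04% and 6.81%, 24.1% and 20.5%, and 68.5% and 68.6% under the last 3 of these, and 62.9% and 62.5% within the RPE-like cluster. Its log2 ratio was 0.13 with cells thinned.

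Genes at least 2-fold higher in NK or T-like cells (32) numbered 66 as a mean of cells, 9 thinned, 1376 with no minimum of UMIs and 16 at 100 or more, and genes lower (119) numbered 36 thinned, 2590 and 48. Members higher (3) were 1 thinned and 1 without the 5 top cells of each member. Leaving out top cells was chosen after the data had been seen. In Cd3-positive cells, 1 member was higher without the highest doublet scores and with 2 or more Cd3 UMIs, and 1 was lower without integration, with no minimum of UMIs, without the top cell and without the 5 top cells. In Cd3-negative cells, members higher (2) were 1 thinned, 1 without the top cell and 1 without the 5 top cells. Directions turned among ratios whose interval left out no difference for Ccl5 in NK or T-like cells (-0.06), at 0.062 with the gate, 0.075 as a mean of cells and 0.092 thinned, and for Gzma in Cd3-positive cells (0.78), at -0.67 without the 5 top cells. Ratios whose interval included no difference also reached the other sign, in Cd3-positive cells Gzmb (-0.20), Xcl1 (-0.14) and Prf1 (-0.048), in Cd3-negative cells Ccl5 (0.44), Ifng (-0.20), Klrd1 (0.083) and Prf1 (-0.14). The causes were not tested.

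The other values were those of single genes or members and the counts of all genes past 2-fold in Cd3-positive and Cd3-negative cells. Of these values under the alternatives, 140 moved and 617 did not. Among the values behind the main results, 42 moved and 179 did not. A level, share or ratio moved when it left its interval, and a count when it changed by more than a set factor.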

Other observations

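In the endothelial-like class, a part of the choroid not described above, the interferon-gamma-induced MHC class II genes H2-Aa and H2-Eb1 stood at 39.6 and 20.7 CPM in control and at 230 and 193 CPM in Dox. Their log2 ratios were 2.54 (2.14 to 2.96) and 3.23 (2.70 to 3.79), and Cxcl9 had 7 and 19 UMIs. Cd74, whose product binds MHC class II proteins, stood at 117 and 942 CPM in the same cells. The leukocyte genes Fcer1g and Tyrobp were also higher, at 31.0 and 62.9 CPM and at 28.7 and 65.1 CPM. The part of leukocyte RNA in these ratios was not tested. Ifngr1 stood there at 166 and 150 CPM. In the antigen-presenting-like class, Cxcl9 had 107 UMIs in control and 11 in Dox, a log2 ratio of -2.45 (-3.50 to -1.56). Cxcl9 had enough UMIs to be counted there through control alone, so nothing is read from its direction. The intervals of Ifngr1 and Ifngr2 in that class included no difference.

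Serpinb9b, a relative of the granzyme B inhibitor gene, had 0 UMIs in 964 control and 24 UMIs in 528 Dox antigen-presenting-like cells. It had enough UMIs to be counted through Dox alone, so nothing is read from its direction. Cd3-negative lymphocytes held 29 UMIs of Serpinb9b in control and 23 in Dox. The part of lymphocyte RNA in the antigen-presenting-like count was not tested.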
